A study of Mus musculus with 18 samples.

Results

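The genes described here are the chemokine ligands and receptors measured in mouse kidney 3 days after ureteral obstruction. They were chosen by name alone: ligand symbols beginning Ccl or Cxcl with a number, Cx3cl1 and Xcl1, and the receptor symbols Ccr, Cxcr, Cx3cr1, Ccrl2 and Ackr. Only probe sets that the platform annotation pairs with a single symbol were used, and where a gene had several, the one with the highest average log2 value across the arrays was taken. This gave 52 genes, 32 ligands and 20 receptors, of 12393 genes on the array, from 70 probe sets, and 15 of the 52 genes had several. A further 4 probe sets shared by several chemokine symbols named no gene.

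Total RNA from snap-frozen kidney of C57BL/6 mice was hybridised to Affymetrix Mouse430A_2 arrays. The mice were wild type (WT), TIMP2-/- or TIMP3-/-, the knockouts lacking a tissue inhibitor of metalloproteinases, and each genotype had a sham group and a group with unilateral ureteral obstruction (UUO). In UUO the right proximal ureter was ligated, the sham operation left the ureter open, and the operated side's kidney was taken at day 3. Each of the 6 groups held 3 arrays, 18 in all, described by the labels as biological replicates. The labels used here give neither sex nor age, nor do they say whether littermates were compared, so genotype differences and differences between colonies cannot be told apart. An array is named by its group and number, such as WT UUO 2. Values are deposited intensities on a linear scale, and differences are log2 differences with their standard error (SE).

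Chemokines are small secreted proteins that attract leukocytes by binding G protein-coupled receptors on their surface. CC ligands such as CCL2 draw monocytes through CCR2, CXC ligands such as CXCL1 draw neutrophils through CXCR2, and the interferon-induced ligands CXCL9 and CXCL10 draw activated T and NK cells through CXCR3. CXCL16 and CX3CL1 are made as membrane-bound proteins and are released by ADAM proteases, which TIMP3 can inhibit, while matrix metalloproteinases trim several soluble chemokines. In obstructed kidney, injured tubule cells and infiltrating macrophages are known sources of chemokines, and monocytes entering the interstitium are an early feature.

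The targeted genes were read first. Timp3 was near the dim end of the array in both TIMP3-/- groups (means of 49.2 in sham and 36.9 in UUO, against 7500 and 4863 in WT), and Timp2 was 640 and 824 in TIMP2-/- against 1179 and 4138 in WT. The Timp2 difference passed after UUO (-2.32 ± 0.16, adjusted p = 1.2e-06) and not after sham (-0.86 ± 0.16, adjusted p = 0.131), and where its probe set lies relative to the deletion was not checked. Of the marker lists, all 8 proximal tubule genes fell with UUO in each genotype and 18, 17 and 18 of 19 macrophage and monocyte genes rose in WT, TIMP2-/- and TIMP3-/-. The 3 red cell genes fell in each genotype, and 6, 6 and 8 of 10 genes of the loop, distal tubule and collecting duct fell. Of the leukocyte lists, 5, 5 and 3 of 13 T and NK cell genes rose and 0, 1 and 3 fell, 3, 3 and 3 of 5 dendritic cell genes rose and none fell, 1, 1 and 1 of 6 B cell genes rose and 2, 1 and 3 fell, and 3, 0 and 2 of 11 neutrophil genes rose and 1, 2 and 4 fell. Of 8 endothelial genes 3, 0 and 3 rose and 1, 2 and 1 fell, of 6 platelet genes 1, 1 and 2 rose and 0, 4 and 4 fell, and of 15 hepatocyte genes 4, 3 and 1 rose and 1, 2 and 5 fell. Of all genes, 16.8%, 15.9% and 25.7% rose and 16.2%, 22.0% and 38.8% fell. The summed intensity of the macrophage list ran from 7688 to 14093 on sham arrays and from 50543 to 115006 on UUO arrays. Several arrays stood apart. WT sham 3 and TIMP3-/- UUO 2 lay away from the others on the second principal component (-60.0 and -40.7, with 15.5% of the variance). The hepatocyte gene Alb stood at 28106 on WT UUO 2 and at no more than 933.2 elsewhere. The sum of 11 neutrophil markers was 5464 on WT UUO 2 and 4405 on TIMP3-/- UUO 1, against 662.6 to 1361 on the rest. Of this list, the granule genes Mpo, Elane and Ngp were at 28.75 to 87.2 on every array, while S100a8 read 2126 and 1514 and S100a9 1671 and 1668 on those 2 arrays.

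Most chemokine ligands rose with obstruction, in every genotype. Of 32 ligands, 18 rose and 1 fell in WT (limma, adjusted p under 0.05), where 33.0% of all genes passed and 16.8% passed upward. In TIMP2-/- 17 rose and 2 fell, where 37.9% of all genes passed and 15.9% passed upward. In TIMP3-/- 19 rose and 3 fell, where 64.6% passed and 25.7% passed upward. The median ligand difference was 1.27, 0.97 and 1.13 in WT, TIMP2-/- and TIMP3-/-, beside medians over all genes of -0.088, -0.120 and -0.191. When arrays were centred on their medians, the ligands split as 17 up and 5 down in TIMP2-/-, where 11.2% of all genes passed upward and 41.2% downward, and as 16 up and 6 down in TIMP3-/-, where 19.5% and 51.4% did. The same 17 ligands rose in all 3 genotypes: Ccl2, Ccl5, Ccl6, Ccl7, Ccl8, Ccl9, Ccl12, Ccl17, Cx3cl1, Cxcl1, Cxcl2, Cxcl5, Cxcl9, Cxcl10, Cxcl14, Cxcl16 and Cxcl17. These are whole-kidney values, in which more cells of a type and more RNA per cell cannot be told apart, and the part of the higher macrophage sums in these rises was not tested. All 3 UUO arrays lay above all 3 sham arrays for 19, 21 and 18 ligands, as for 21.6%, 23.0% and 23.8% of all genes, and below them for 2, 4 and 4 ligands, as for 26.7%, 33.2% and 39.5%.

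**Figure D1:**
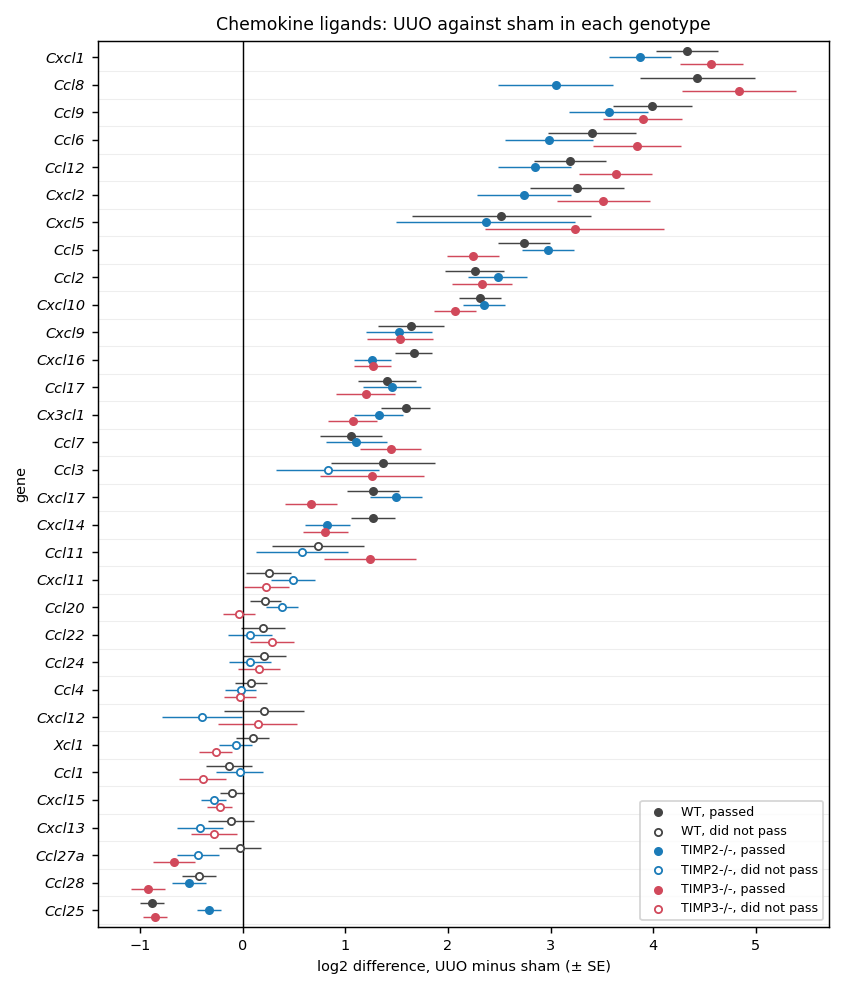
Log2 difference of UUO minus sham with its SE for the 32 chemokine ligands (rows) in WT, TIMP2-/- and TIMP3-/- kidneys, filled where the gene passed at an adjusted p under 0.05. Cxcl1, Ccl8 and Ccl9 all lie at 3.05 or more in each genotype, and Ccl25 is the ligand that passed on the lower side in each genotype.

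Several of the risen ligands are neighbours in the genome. By the RefSeq gene table of GRCm38.p6, Ccl2, Ccl7, Ccl11, Ccl12, Ccl8 and Ccl1 are 6 consecutive protein-coding genes on chromosome 11, and a second run of 5 on the same chromosome holds Ccl5, Ccl9, Ccl6, Ccl3 and Ccl4. Each run holds members that rose in every genotype and a member, Ccl1 or Ccl4, that passed in none. On chromosome 8, Cx3cl1 and Ccl17 rose while Ccl22, in the same row of 3, did not pass. On chromosome 5, Cxcl1 and Cxcl2 rose beside Cxcl15, which was dim on every array.

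Promoter sequence was compared because so many ligands moved together. The RefSeq promoter table (GRCm38.p6) held 39 of the 52 genes, and the 250 bases before each start were searched on both strands for the NF-kappaB consensus, the ISRE core bound by interferon-regulated factors (GAAA, any 2 bases, then GAAA), and the AP-1 site TGANTCA. Of 11 ligands with a promoter that rose in all 3 genotypes, 4 (36.4%) held the NF-kappaB consensus, against 3.90% of all 32851 promoters. The ISRE core was in 2 of the 11 (18.2%, against 2.98%) and the AP-1 site in 2 (18.2%, against 6.75%). Of 10 ligands with a promoter that rose in no genotype, 1 held the NF-kappaB consensus, none the ISRE core and 1 the AP-1 site. Receptors held the NF-kappaB consensus in 4 of 17 genes. A match describes these letters only. The printed stretches run from just before the first match to the start of the gene, with matches in capitals. They are shown because the 4 matching risen ligands, Cxcl1, Cxcl2, Ccl9 and Cxcl10, can be set against Ccl20, which has a match and did not pass. The NF-kappaB matches of Cxcl1 and Cxcl2 are near-palindromes read on both strands.
Cxcl1, chr5:90891164-90891244, plus strand, NF-kappaB match 71 to 61 bases before the start: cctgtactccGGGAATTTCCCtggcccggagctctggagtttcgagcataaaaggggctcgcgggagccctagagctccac
Cxcl2, chr5:90903792-90903898, plus strand, NF-kappaB match 97 to 87 bases before the start: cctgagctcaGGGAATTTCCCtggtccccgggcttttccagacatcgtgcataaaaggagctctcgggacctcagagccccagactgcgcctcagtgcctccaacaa
Ccl9, chr11:83578637-83578699, minus strand, AP-1 then NF-kappaB: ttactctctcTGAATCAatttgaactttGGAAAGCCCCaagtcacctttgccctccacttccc
Cxcl10, chr5:92348890-92349112, minus strand, ISRE, 2 NF-kappaB matches and AP-1: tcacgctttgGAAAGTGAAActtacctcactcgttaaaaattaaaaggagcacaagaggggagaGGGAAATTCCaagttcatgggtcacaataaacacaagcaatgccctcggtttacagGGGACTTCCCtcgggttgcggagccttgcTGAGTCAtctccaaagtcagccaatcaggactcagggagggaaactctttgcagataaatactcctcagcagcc
Ccl20, chr1:83116676-83116765, plus strand, NF-kappaB match: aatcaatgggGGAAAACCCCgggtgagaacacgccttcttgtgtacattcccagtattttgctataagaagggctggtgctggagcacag
Cxcl1 and Cxcl2 carry the same 11 capital bases, and Cxcl10 is the member here with all 3 kinds of match.

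The 4 ligands grouped here under CCR2, the receptor that brings monocytes out of the blood, were Ccl2, Ccl7, Ccl8 and Ccl12. Binding to CCR2 was not measured for these ligands, Ccl8 included. They rose in every genotype, with median differences of 2.73 in WT, 2.67 in TIMP2-/- and 2.98 in TIMP3-/-. Ccl2, the main monocyte attractant, read 116, 118 and 108 on the WT sham arrays and 519, 901 and 352 after UUO. In TIMP2-/- it read 144, 125 and 102 after sham and 643, 714 and 702 after UUO. In TIMP3-/- it went from 133, 168 and 124 to 715, 1025 and 483. No UUO array came down to a sham array in any genotype, and the rises were 2.26 ± 0.29, 2.49 ± 0.29 and 2.33 ± 0.29 (adjusted p = 3.41e-05, 1.98e-05 and 1.2e-05), or 4.80-, 5.60- and 5.03-fold. Ccl8, a relative of Ccl2 made by macrophages, was 95.1, 81.7 and 83.0 on WT sham arrays and 1362, 4981 and 953 after UUO. Its TIMP2-/- values were 99.7, 133 and 160 after sham and 1076, 821 and 1375 after UUO, and its TIMP3-/- values 103, 149 and 113 against 7721, 3881 and 1360. The rises of Ccl8 were 4.43 ± 0.56, 3.05 ± 0.56 and 4.84 ± 0.56 (adjusted p = 2.98e-05, 0.00099 and 6.96e-06). The UUO arrays of WT and TIMP3-/- spanned several-fold among themselves, with WT UUO 2 and TIMP3-/- UUO 1 highest.

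Ccl12, a mouse ligand of CCR2 that is absent from the human genome, was dim in all sham groups, at 32.1, 34.3 and 27.3 in WT, 28.2, 34.9 and 34.8 in TIMP2-/- and 35.5, 35.4 and 32.8 in TIMP3-/-. These values are under 56.76, the lowest 25th percentile of any array and the limit used here for a dim value. After UUO it read 275, 579 and 144 in WT, 242, 269 and 195 in TIMP2-/- and 638, 356 and 348 in TIMP3-/-. Its rises of 3.19 ± 0.36, 2.85 ± 0.36 and 3.63 ± 0.36 (adjusted p = 9.01e-06, 3.97e-05 and 2.07e-06) start from a dim level, so their size is less certain than their direction. Ccl7, which also attracts monocytes, moved less, from group means of 85.8 to 192 in WT, 104 to 223 in TIMP2-/- and 107 to 300.3 in TIMP3-/-. It rose by 1.05 ± 0.30, 1.11 ± 0.30 and 1.44 ± 0.30 (adjusted p = 0.0136, 0.0108 and 0.000869). In WT its call rests on single arrays: without WT UUO 2, at 310 the highest, the difference was 0.65 (adjusted p = 0.0749), and without WT sham 2 it was 0.96 (adjusted p = 0.05).

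Ccl9 and Ccl6, which bind CCR1 on monocytes and macrophages, rose in every genotype. Ccl9 read 182, 146 and 113 on WT sham arrays and 1983, 4355 and 1409 after UUO, and its promoter stretch is printed above. In TIMP2-/- Ccl9 went from 188, 153 and 194 to 1939, 2188 and 2199, and in TIMP3-/- from 191, 237 and 261 to 6291, 3158 and 1972. Its rises of 3.99 ± 0.38, 3.57 ± 0.38 and 3.90 ± 0.38 (adjusted p = 2.26e-06, 9.85e-06 and 2.13e-06) made Ccl9 one of the steadier ligands across genotypes. Ccl6, a myeloid CCR1 ligand, was 284, 227 and 223 in WT sham and 2143, 5370 and 1481 in WT UUO. Its TIMP2-/- arrays read 255, 187 and 247 after sham and 1889, 1718 and 1793 after UUO, and its TIMP3-/- arrays 263, 307 and 325 against 8332, 4391 and 2118. It rose by 3.40 ± 0.43, 2.98 ± 0.43 and 3.84 ± 0.43 (adjusted p = 2.87e-05, 0.000129 and 5.17e-06). The second probe sets of Ccl6 and Ccl9 also lay higher on every UUO array than on any sham array.

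Ccl5, known as RANTES and made by T cells, NK cells and injured epithelium, followed another order of arrays. It was 169, 146 and 161 in WT sham and 1325, 889 and 1014 in WT UUO, so WT UUO 2, the highest for Ccl6, Ccl8 and Ccl9, was here the lowest of its group. In TIMP2-/- Ccl5 read 198, 174 and 319 after sham and 1612, 1652 and 2001 after UUO, and in TIMP3-/- 207, 327 and 383 against 1428, 1097 and 1762. The rises were 2.75 ± 0.25, 2.97 ± 0.25 and 2.24 ± 0.25 (adjusted p = 1.7e-06, 1.32e-06 and 6e-06). Ccl3, the macrophage inflammatory protein 1α gene, was dim after sham in every genotype (26.0 to 48.1). It reached 46.2 to 144 in WT UUO, 54.0 to 103 in TIMP2-/- UUO and 58.8 to 287 in TIMP3-/- UUO. It passed in WT (1.36 ± 0.51, adjusted p = 0.0497) and TIMP3-/- (1.26 ± 0.51, adjusted p = 0.0399) and not in TIMP2-/- (0.83 ± 0.51, adjusted p = 0.203), and both calls were lost with the replicate number as a block (adjusted p = 0.0642 and 0.0538). In WT the call was also lost without any 1 of WT sham 1, sham 2, sham 3, UUO 1 or UUO 2 (0.90 to 1.51, adjusted p = 0.07 to 0.23). In TIMP3-/- it was lost without any sham array (1.08 to 1.35, adjusted p = 0.0618 to 0.11) and without TIMP3-/- UUO 1 (0.50, adjusted p = 0.258). Ccl4, the partner of Ccl3 in macrophages, was measured at 121 to 182 on all arrays and did not pass (-0.03 to 0.08).

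The neutrophil attractants that bind CXCR2 rose together, with median differences of 3.26, 2.74 and 3.52. Cxcl1, produced by stressed tubule and endothelial cells, had the smallest adjusted p of all 52 genes in each genotype. Its values were 62.1, 47.8 and 55.0 in WT sham and 1110, 1894 and 630 in WT UUO. The TIMP2-/- arrays read 99.7, 67.1 and 78.7 after sham and 1115, 1494 and 989 after UUO, and the TIMP3-/- arrays 69.9, 65.9 and 68.6 against 1647, 2079 and 1233. Cxcl1 thus rose by 4.33 ± 0.30 (adjusted p = 1.3e-07), 3.87 ± 0.30 (adjusted p = 6.04e-07) and 4.57 ± 0.30 (adjusted p = 7.23e-08), or 20.1-, 14.6- and 23.7-fold. Cxcl2, whose promoter holds the same 11 capital bases as that of Cxcl1, started dim, at 22.2, 31.99 and 31.99 in WT sham, 30.9, 29.6 and 25.5 in TIMP2-/- sham and 31.6, 26.8 and 33.1 in TIMP3-/- sham. It read 239, 593 and 141 in WT UUO, 150, 241 and 193 in TIMP2-/- UUO and 570, 458 and 160 in TIMP3-/- UUO, and it rose by 3.26 ± 0.46, 2.74 ± 0.46 and 3.52 ± 0.46 (adjusted p = 7.54e-05, 0.00047 and 1.78e-05).

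Cxcl5, an epithelial neutrophil attractant, was the most variable ligand. Its sham arrays read 23.0, 27.8 and 17.6 in WT, 25.3, 27.0 and 21.7 in TIMP2-/- and 17.7, 20.3 and 24.8 in TIMP3-/-. The UUO arrays read 73.2, 686 and 42.2 in WT, 105, 202 and 95.7 in TIMP2-/- and 676, 225 and 49.2 in TIMP3-/-, so WT UUO 3 and TIMP3-/- UUO 3 stayed below the dim limit. The differences were 2.52 ± 0.87, 2.37 ± 0.87 and 3.24 ± 0.87 (adjusted p = 0.0371, 0.0442 and 0.0051). In WT the call was lost without WT UUO 2 (1.31, adjusted p = 0.206) or without any sham array (2.34 to 2.67, adjusted p = 0.0615 to 0.1), and in TIMP2-/- without any 1 of its 6 arrays (2.03 to 2.57, adjusted p = 0.0505 to 0.155). The arrays with the most Cxcl5, WT UUO 2 and TIMP3-/- UUO 1, were those with the highest neutrophil sums given above, whose part in the result was not tested. Cxcr2, the receptor of these ligands, was dim on nearly all arrays (32.9 to 57.5) and did not pass.

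Among the interferon-induced ligands of CXCR3, Cxcl9 and Cxcl10 rose in every genotype and Cxcl11 passed in none. Cxcl10, whose promoter stretch carries the ISRE, NF-kappaB and AP-1 letters, read 199, 192 and 183 in WT sham and 1094, 1009 and 780 in WT UUO. Its TIMP2-/- values were 239, 177 and 241 against 1258, 1183 and 912, and its TIMP3-/- values 183, 291 and 269 against 1046, 816 and 1244. It rose by 2.31 ± 0.21, 2.35 ± 0.21 and 2.07 ± 0.21 (adjusted p = 1.26e-06, 1.56e-06 and 2.41e-06), and its UUO arrays were closer together than those of Ccl8 or Cxcl5. Cxcl9 went from 92.8 to 146 up to 224 to 645 in WT, from 99.1 to 124 up to 284 to 370 in TIMP2-/- and from 116 to 193 up to 330 to 603 in TIMP3-/-. The rises of Cxcl9 were 1.64, 1.53 and 1.53, each ± 0.32 (adjusted p = 0.00124, 0.0026 and 0.000973). Cxcl11 stayed at 34.7 to 82.9 on all arrays. Their receptor Cxcr3, on activated T and NK cells, was at 140 to 214 after sham and 164 to 297 after UUO and did not pass (0.43, 0.47 and 0.29, adjusted p = 0.135, 0.0935 and 0.236).

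Both membrane-bound ligands rose in every genotype. Cxcl16, the scavenger-receptor chemokine bound by CXCR6, had sham means of 844 ± 120 (SD, n = 3) in WT, 1126 ± 115 (SD, n = 3) in TIMP2-/- and 1059 ± 150 (SD, n = 3) in TIMP3-/-. After UUO these were 2679 ± 423, 2690 ± 100.4 and 2581 ± 675, giving rises of 1.66 ± 0.18, 1.26 ± 0.18 and 1.26 ± 0.18 (adjusted p = 6.55e-06, 0.000122 and 3.76e-05). Cx3cl1, called fractalkine and expressed by endothelium and injured tubules, went from 659 to 982 up to 2238 to 2706 in WT. In TIMP2-/- it went from 874 to 1076 up to 2238 to 2556, and in TIMP3-/- from 872 to 1208 up to 1624, 1742 and 3562. Its rises were 1.59, 1.32 and 1.07, each ± 0.24 (adjusted p = 0.000136, 0.000901 and 0.0015). The TIMP3-/- rise of Cx3cl1 was 0.71 (adjusted p = 0.003) without TIMP3-/- UUO 3, the array where it was highest. When the 3 probe sets of Cx3cl1 were averaged, the gene no longer passed in TIMP2-/- (0.59, adjusted p = 0.0702) or TIMP3-/- (0.50, adjusted p = 0.0857). The brighter of the other probe sets went from 276, 258 and 335 to 357, 374 and 398 in TIMP2-/-. In TIMP3-/- it read 245, 339 and 332 after sham and 228, 229 and 570 after UUO, so UUO 1 and 2 lay below the sham arrays.

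Of the other ligands that rose, Ccl17, which attracts CCR4-bearing T cells, rose by 1.41, 1.45 and 1.20, each ± 0.29 (adjusted p = 0.0016, 0.00167 and 0.00236). The other CCR4 ligand, Ccl22, read 78.6 to 181 on all arrays and did not pass. Cxcl14, an epithelial chemokine with no agreed receptor, rose by 1.27, 0.82 and 0.81, each ± 0.22 (adjusted p = 0.00042, 0.00951 and 0.00517). Its second probe set moved more, so that the mean of both gave 1.77, 1.19 and 1.47. Cxcl17, a mucosal chemokine, was 168, 113 and 157 in WT sham and 453, 241 and 385 in WT UUO. In TIMP2-/- it went from 143, 150 and 171 to 424, 429 and 457. In TIMP3-/- it went from 142, 141 and 166 to 166, 224 and 355, where TIMP3-/- UUO 1 overlapped the sham arrays. The rises of Cxcl17 were 1.27, 1.50 and 0.66, each ± 0.25 (adjusted p = 0.00137, 0.000541 and 0.032). The TIMP3-/- call was lost without TIMP3-/- UUO 3 (0.37, adjusted p = 0.173) and without TIMP3-/- UUO 2, sham 1 or sham 2 (0.62 to 0.70, adjusted p = 0.0551 to 0.0836). It was also lost with arrays centred (0.43, adjusted p = 0.156), with quantile normalization repeated (0.45, adjusted p = 0.163), with array weights (0.34, adjusted p = 0.172) and with only the arrays compared (0.66, adjusted p = 0.0759).

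**Figure D2:**
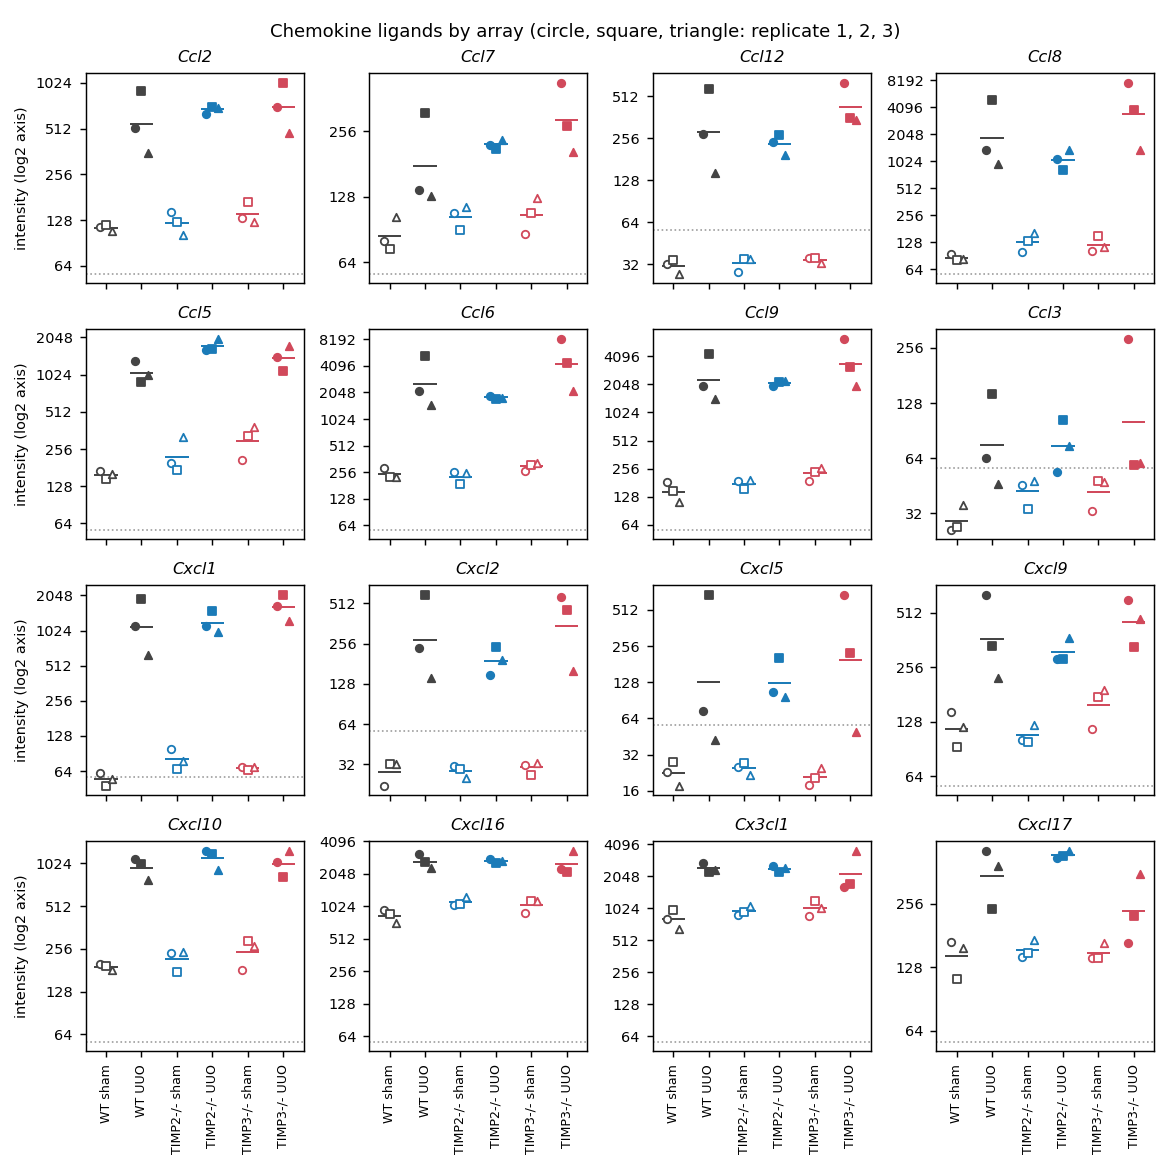
Intensity on a log2 axis of 16 chemokine ligands on each of the 18 arrays, by group, with group means of log2 values as bars and the dim limit of 56.76 as a dotted line. Ccl8, Ccl6, Ccl9 and Cxcl5 spread widely over the WT and TIMP3-/- UUO arrays, and the Cxcl10 and Cxcl16 arrays of each UUO group lie close together.

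The ligands that fell are ones bound by CCR9 and CCR10. Ccl25, the thymic and intestinal ligand of CCR9, read 192, 179 and 205 in WT sham and 103, 95.6 and 114 in WT UUO. In TIMP2-/- it went from 166, 134 and 165 to 118, 130 and 119, and in TIMP3-/- from 215, 199 and 183 to 104, 107 and 119. It fell by 0.89 in WT, by 0.33 in TIMP2-/- and by 0.85 in TIMP3-/-, each ± 0.12 (adjusted p = 5.09e-05, 0.04 and 3.26e-05). The smaller TIMP2-/- fall of Ccl25 was lost without any 1 of TIMP2-/- sham 1, sham 3, UUO 1, UUO 2 or UUO 3 (-0.38 to -0.28, adjusted p = 0.0629 to 0.137). Ccl28, an epithelial ligand of CCR10, read 106, 99.9 and 95.8 in WT sham and 71.4, 61.7 and 93.8 in WT UUO. Its TIMP2-/- arrays went from 146, 109 and 130 to 85.7, 80.1 and 102, and its TIMP3-/- arrays from 90.1, 114 and 123 to 62.8, 53.5 and 55.0. Ccl28 fell by 0.53 ± 0.17 in TIMP2-/- (adjusted p = 0.0231) and by 0.92 ± 0.17 in TIMP3-/- (adjusted p = 0.0003), and in WT the difference was -0.43 ± 0.17 (adjusted p = 0.0589). The TIMP2-/- fall of Ccl28 did not pass without TIMP2-/- sham 1, sham 3, UUO 1 or UUO 2 (-0.51 to -0.43, adjusted p = 0.0657 to 0.1). Ccl27a, the skin ligand of the same receptor, fell by 0.67 ± 0.21 in TIMP3-/- (adjusted p = 0.0104), with -0.44 in TIMP2-/- and -0.02 in WT. The proximal tubule list, all of whose 8 genes fell, had sums of 92080 to 102974 on sham arrays and 11999 to 54180 on UUO arrays, and its part in these falls was not tested.

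The remaining ligands did not pass in most comparisons. Ccl11, the eosinophil attractant eotaxin, was dim on 14 of 18 arrays and passed in TIMP3-/- (1.24 ± 0.45, adjusted p = 0.0253), where the UUO arrays read 188, 115 and 42.8. That call was lost without TIMP3-/- UUO 1 (0.77, adjusted p = 0.142) and without TIMP3-/- UUO 2, sham 2 or sham 3 (1.12 to 1.26, adjusted p = 0.0566 to 0.079). Cxcl12, the stromal ligand of CXCR4, read 2403 to 4081 on sham arrays. After UUO it ranged from 1761 on TIMP2-/- UUO 1 to 7062 on TIMP3-/- UUO 1 and 6725 on WT UUO 2, and it did not pass in any genotype (0.21, -0.40 and 0.14). The other probe set of Cxcl12 went from 1175, 1639 and 1704 down to 647, 664 and 787 in TIMP2-/-, without overlap. It read 1298 to 1989 after sham and 854 to 1825 after UUO in WT, which overlap. In TIMP3-/- it read 1412 to 2084 and 761 to 1783, which overlap too. For Cxcl13, the B cell attractant, the 2 probe sets disagreed: the one used read 90 to 182 on all arrays, while the other read 295 and 203 on TIMP3-/- UUO 1 and 2 and 98.3 and 109 on WT UUO 1 and 2, against 29.9 to 50.5 elsewhere. Ccl1, Ccl20, Ccl22, Ccl24 and Xcl1 were above the dim limit in each group mean without passing, and Cxcl15 was dim on every array.

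Receptors passed about as often as all genes did. Of 20 receptors, 6 rose and 0 fell in WT, 6 rose and 2 fell in TIMP2-/-, and 7 rose and 7 fell in TIMP3-/-, with median differences of 0.08, -0.10 and 0.11. These 6, 8 and 14 of 20 stand beside 33.0%, 37.9% and 64.6% of all genes, so the counts of calls in either direction are no result about receptors. By direction, 16.8%, 15.9% and 25.7% of all genes rose and 16.2%, 22.0% and 38.8% fell. With arrays centred on their medians the splits were 5 up and 4 down in WT, where 44.6% of all genes passed, 5 up and 7 down in TIMP2-/-, where 52.4% did, and 6 up and 8 down in TIMP3-/-, where 70.9% did. With that centring 12.8%, 11.2% and 19.5% of all genes passed upward and 31.8%, 41.2% and 51.4% downward. Ccr1, Ccr2, Ccr7 and Cx3cr1 rose in every genotype. All 3 UUO arrays lay above all 3 sham arrays for 7, 8 and 8 receptors, as for 21.6%, 23.0% and 23.8% of all genes. They lay below the sham arrays for 4, 3 and 7 receptors, as for 26.7%, 33.2% and 39.5% of all genes. Of the 20, Ccr3, Ccr8, Ccr9, Cxcr2 and Cxcr5 were dim in all groups.

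**Figure D3:**
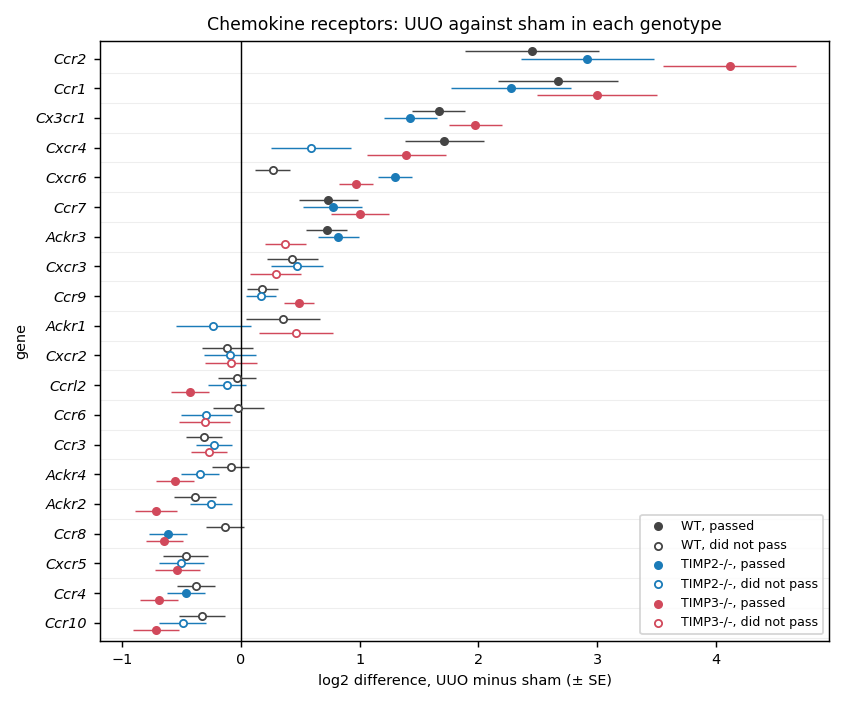
Log2 difference of UUO minus sham with its SE for the 20 chemokine receptors (rows) in each genotype, filled where the gene passed at an adjusted p under 0.05. Ccr2, Ccr1 and Cx3cr1 lie at 1.43 or more in each genotype, and the filled points left of 0 are mostly TIMP3-/-.

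The receptors of monocytes and macrophages carried the largest receptor changes. Ccr2, the receptor of Ccl2, read 60.8, 52.9 and 75.2 in WT sham and 454, 543 and 161 in WT UUO. In TIMP2-/- it went from 45.8, 62.1 and 41.2 to 534, 528 and 179, and in TIMP3-/- from 69.6, 57.2 and 48.6 to 1111, 2274 and 397. The third UUO array was the lowest in each genotype, and every UUO array stood above every sham array. The rises of Ccr2 were 2.45, 2.92 and 4.11, each ± 0.56 (adjusted p = 0.00365, 0.00143 and 2.76e-05). Ccr1, the receptor of Ccl6 and Ccl9, was 90.6, 53.8 and 45.0 in WT sham and 251, 966 and 232 in WT UUO. Its TIMP2-/- values were 74.7, 70.0 and 61.6 against 341, 398 and 267, and its TIMP3-/- values 65.3, 71.5 and 73.6 against 1269, 446 and 309. It rose by 2.67, 2.27 and 3.00, each ± 0.50 (adjusted p = 0.000931, 0.00358 and 0.000168). The arrays highest for Ccr1, WT UUO 2 and TIMP3-/- UUO 1, were the ones highest for Ccl6 and Ccl9. Without WT UUO 2 the WT rise of Ccr1 was 2.00 (adjusted p = 0.00353).

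Cx3cr1, the fractalkine receptor of patrolling monocytes and resident kidney macrophages, had tighter groups. Its means were 201 ± 37.4 after sham and 640 ± 120 after UUO in WT, 243 ± 26.0 and 657 ± 119 in TIMP2-/-, and 258 ± 48.5 and 1032 ± 310 in TIMP3-/- (SD, n = 3). It rose by 1.67, 1.43 and 1.97, each ± 0.22 (adjusted p = 4.86e-05, 0.00027 and 5.73e-06), alongside its ligand Cx3cl1. The other probe set of Cx3cr1 was dimmer, at 31.8 to 55.2 after sham and 50.1 to 77.2 after UUO. By it, sham and UUO arrays overlapped in TIMP3-/- and not in WT or TIMP2-/-. Ccr7, which guides dendritic cells and naive T cells to lymph nodes, rose by 0.74, 0.77 and 1.01, each ± 0.25 (adjusted p = 0.0308, 0.0234 and 0.00268). In WT the call on Ccr7 was lost without WT sham 2, sham 3, UUO 1 or UUO 2 (0.64 to 0.71, adjusted p = 0.0778 to 0.115), and in TIMP2-/- without sham 1, sham 2 or UUO 2 (0.61 to 0.76, adjusted p = 0.0595 to 0.0922). It was also lost in both with arrays centred on their medians (0.55 and 0.56, adjusted p = 0.0868 and 0.0739). The 5 dendritic cell markers had sums of 536 to 807 on sham arrays and 1200 to 1834 on UUO arrays, and their part in the Ccr7 result was not tested.

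Cxcr4, the receptor of Cxcl12 found on most leukocytes, rose in WT (1.71 ± 0.33, adjusted p = 0.00116) and TIMP3-/- (1.39 ± 0.33, adjusted p = 0.00241) and did not pass in TIMP2-/- (0.59 ± 0.33, adjusted p = 0.167). Its UUO arrays read 127, 306 and 117 in WT, 104, 98.7 and 88.2 in TIMP2-/- and 276, 113 and 166 in TIMP3-/-, all above the sham arrays of the same genotype. The difference between the WT and TIMP2-/- responses was itself tested and did not pass (-1.12 ± 0.47, adjusted p = 0.518). Ackr3, an atypical receptor that takes up CXCL12 without G protein signalling, read 1353 to 2237 on sham arrays. It rose by 0.72 ± 0.17 in WT (adjusted p = 0.00481) and by 0.82 ± 0.17 in TIMP2-/- (adjusted p = 0.00262), and in TIMP3-/- the difference was 0.37 ± 0.17 (adjusted p = 0.0696).

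Cxcr6, the receptor of Cxcl16 on T, NK and NKT cells, was the 1 member that passed between a knockout and WT. Its WT arrays read 40, 42.4 and 30.9 after sham and 47.4, 47.0 and 40.9 after UUO, which overlap. In TIMP2-/- it went from 22.0, 31.3 and 30.6 to 65.7, 68.7 and 69.1, and in TIMP3-/- from 48.4, 47.6 and 46.8 to 88.5, 100 and 91.4. It rose in TIMP2-/- (1.30 ± 0.14, adjusted p = 1.37e-05) and TIMP3-/- (0.97 ± 0.14, adjusted p = 6.04e-05) and not in WT (0.27 ± 0.14, adjusted p = 0.169). All WT and sham values of Cxcr6 lie below the dim limit, and so do all values of its other probe set, which read 12.2 to 15.6 on sham arrays. That probe set read 15.5 to 25.7 in WT UUO, 22.5 to 30.1 in TIMP2-/- UUO and 29.0 to 47.6 in TIMP3-/- UUO, so by it the WT and TIMP2-/- UUO arrays overlapped. The 13 T and NK cell markers had sums of 1033 to 1415 on sham arrays and 1257 to 1732 on UUO arrays, and the 3 genotypes overlapped after UUO. Their part in the Cxcr6 result was not tested.

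**Figure D4:**
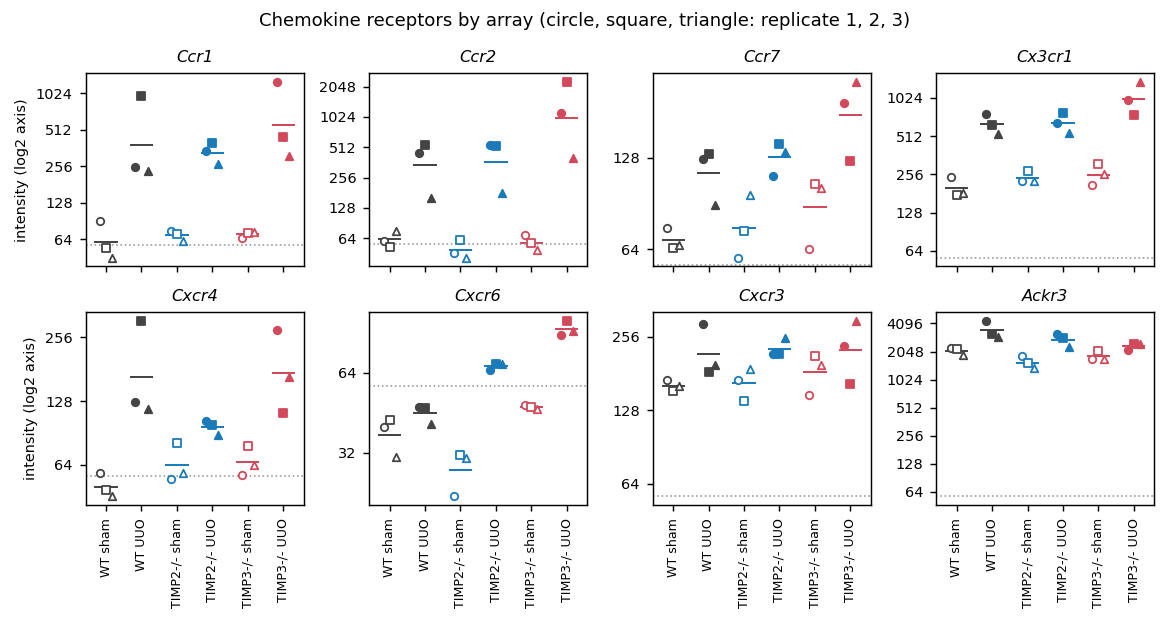
Intensity on a log2 axis of 8 chemokine receptors on each of the 18 arrays, by group, with group means of log2 values as bars and the dim limit of 56.76 as a dotted line. The 3 UUO groups of Cxcr6 do not overlap each other, and in Ccr1 the arrays WT UUO 2 and TIMP3-/- UUO 1 stand highest.

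The receptors that fell mostly did so in TIMP3-/-. They were Ackr2, which scavenges inflammatory CC chemokines (-0.71 ± 0.17, adjusted p = 0.00267), Ackr4, Ccr4, Ccr8, Ccr10, Ccrl2 and Cxcr5, with differences from -0.71 to -0.43. Ccr10, the receptor of Ccl27a and Ccl28, fell there by 0.71 ± 0.20 (adjusted p = 0.00567), from 118 to 133 down to 62.4 to 86.2. In TIMP2-/- Ccr4 (-0.46 ± 0.16, adjusted p = 0.0338) and Ccr8 (-0.61 ± 0.16, adjusted p = 0.00854) fell. With the replicate number as a block, Ccr10 (adjusted p = 0.0498) and Cxcr5 (adjusted p = 0.0457) passed there as well. The share of all genes that fell was 16.2%, 22.0% and 38.8% in WT, TIMP2-/- and TIMP3-/-, so 7 of 20 receptors in TIMP3-/- is near that share. Several of these falls rest on single arrays: Ccr4 in TIMP2-/- was lost without sham 3, UUO 1 or UUO 2 (-0.48 to -0.34, adjusted p = 0.0763 to 0.151) and Ccr8 without sham 3 (-0.45, adjusted p = 0.0503). In TIMP3-/- Ccrl2 was lost without UUO 2 (-0.27, adjusted p = 0.157), sham 2 or sham 3 (-0.39 and -0.37, adjusted p = 0.087 and 0.0975), and Cxcr5 without the same arrays (-0.53 to -0.38, adjusted p = 0.0587 to 0.119). Ccr9, the receptor of Ccl25, passed upward in TIMP3-/- (0.49 ± 0.13, adjusted p = 0.00438) on values of 32.1 to 52.2, all dim, and the mean of its 3 probe sets gave 0.03.

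Whether loss of TIMP2 or TIMP3 changed the chemokine system of the obstructed kidney was asked by comparing the UUO groups directly. Between TIMP2-/- and WT, 0 of 52 members passed, where 0.0242% of all genes did, and 4 had an unadjusted p under 0.05. The smallest adjusted p was that of Cxcr6 (0.59 ± 0.14, adjusted p = 0.637), and the largest difference was that of Cxcl12 (-0.84 ± 0.39, 95% interval -1.66 to -0.01, adjusted p = 0.999). All TIMP2-/- arrays lay above all WT arrays for 6 members and below them for 2, where 4.87% and 3.41% of all genes did; Ccl5 was among the 6 (0.72 ± 0.25). Between TIMP3-/- and WT, 1 member passed, where 0.395% of all genes did, 0.242% upward and 0.153% downward: Cxcr6 was higher in TIMP3-/- by 1.05 ± 0.14 (adjusted p = 0.00513), or 2.07-fold. It passed without each array in turn, and lost its call when only its second probe set, the one without a name suffix, was used (0.85, adjusted p = 0.0697) or when only the 6 arrays compared were fitted (adjusted p = 0.364). Ccr2 had the largest difference, 1.55 ± 0.56 (95% interval 0.36 to 2.75, adjusted p = 0.167), with TIMP3-/- UUO 3 at 397 inside the WT range. Ackr3 was lower in every TIMP3-/- UUO array than in every WT one (-0.56 ± 0.17) without passing (adjusted p = 0.134), as 1 of 4 members entirely below WT, where 6.41% of all genes were, and 2 members were entirely above, where 7.37% were.

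The count for TIMP3-/- against WT after UUO moved with single arrays. Without WT UUO 2, 7 members passed: Ccl6, Ccl7, Ccl8, Ccl12, Cxcl1 and Cxcr6 higher in TIMP3-/- and Cxcl17 lower, and 11.3% of all genes passed. Ccl8 was then 1.59 ± 0.49 higher (adjusted p = 0.0477), against 0.89 ± 0.56 (adjusted p = 0.362) with all arrays. With TIMP3-/- UUO 1 left out instead, Ccl6, Ccl7, Ccl8, Ccl12 and Cxcl1 differed by 0.24, 0.42, 0.30, 0.31 and 0.54. None of these then passed (adjusted p = 0.423 to 0.783). Without TIMP3-/- UUO 3, Ccr2, Cxcl17 and Cxcr6 passed, where 11.8% of all genes did. Leaving out WT sham 3, WT UUO 2 and TIMP3-/- UUO 2 together gave Ccl7, Ccl12 and Cxcr6, where 4.07% did.

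Between the knockouts, 2 members passed after UUO, where 8.08% of all genes did, 1.98% upward and 6.09% downward, and both were lower in TIMP3-/-. Arrays did not overlap for 5 members higher and 6 lower in TIMP3-/-, where 9.99% and 21.1% of all genes were entirely above and below. Cxcl17 differed by -0.88 ± 0.25 (adjusted p = 0.0453), with the 3 TIMP3-/- arrays at 166, 224 and 355 below the TIMP2-/- arrays at 424, 429 and 457. Ccl28 read 62.8, 53.5 and 55.0 in TIMP3-/- UUO against 85.7, 80.1 and 102 in TIMP2-/- UUO, a difference of -0.64 ± 0.17 (adjusted p = 0.035). With the mean of the 2 probe sets of Ccl28 the difference was -0.36 and did not pass (adjusted p = 0.109). Both calls were lost without any 1 of TIMP2-/- UUO 1, UUO 2 or UUO 3 or TIMP3-/- UUO 1 or UUO 2, with adjusted p from 0.0569 to 0.176. Without TIMP3-/- UUO 3, in contrast, 12 members passed, where 27.4% of all genes did, among them Ccl6, Ccl8, Ccl9, Ccl11, Ccr2, Cxcl2 and Cxcl12 higher in TIMP3-/- and Cx3cl1 lower. With all arrays Ccl8 differed by 1.69 ± 0.56 (adjusted p = 0.0679) and Ccl6 by 1.25 ± 0.43 (adjusted p = 0.0754).

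**Figure D5:**
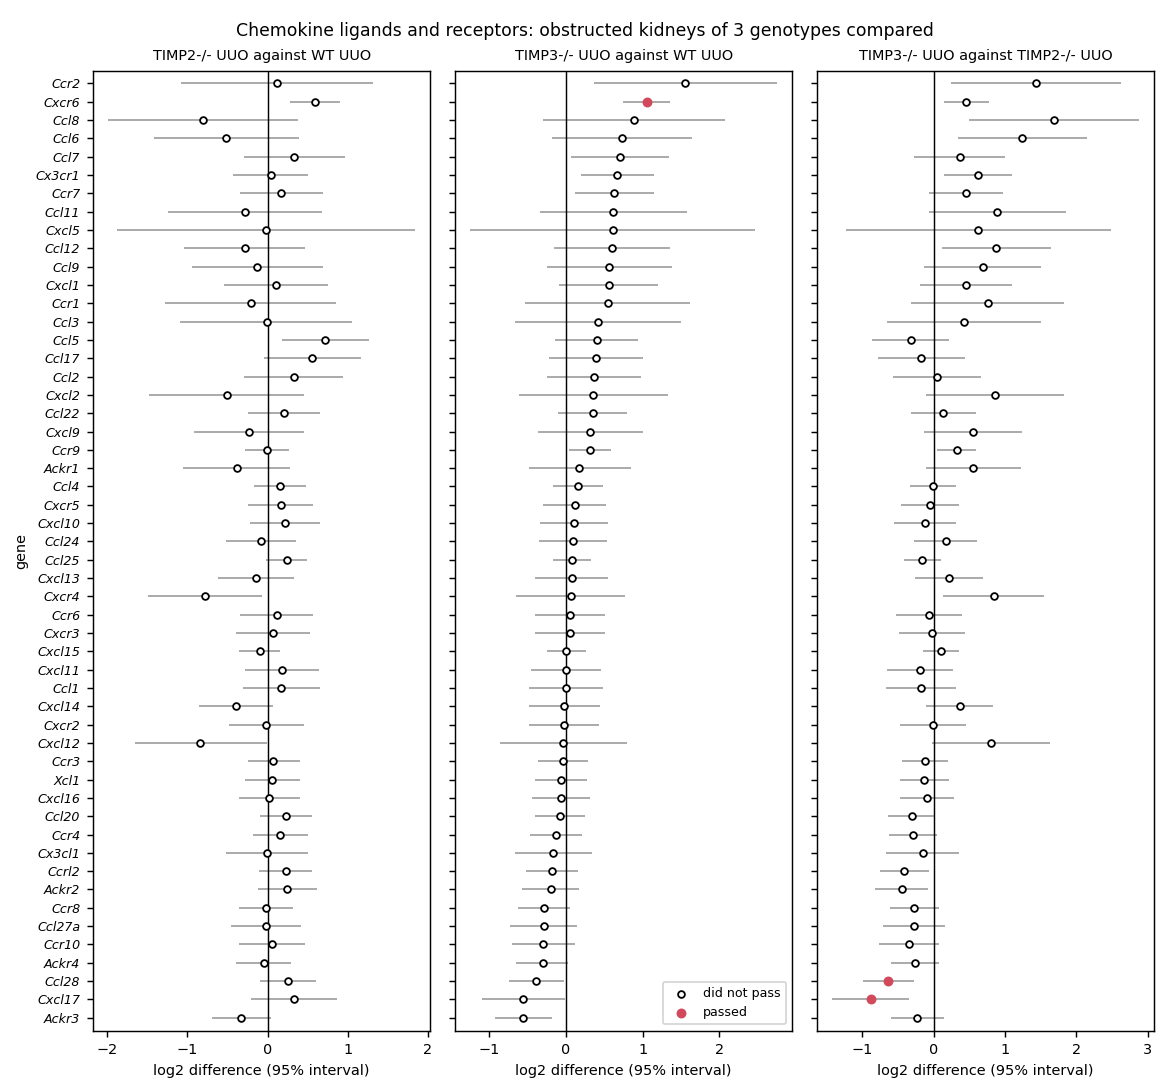
Log2 difference with its 95% interval for the 52 chemokine ligands and receptors (rows) between the obstructed kidneys of TIMP2-/- and WT, TIMP3-/- and WT, and TIMP3-/- and TIMP2-/-, filled where the gene passed. Cxcr6 in the middle panel and Ccl28 and Cxcl17 in the right panel are the filled points, and the intervals of Ccr2, Ccl8 and Cxcl5 are among the widest.

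After sham operation no member passed between genotypes by limma: 0 of 52 for TIMP2-/- against WT (0.00807% of all genes passed, 5 members had an unadjusted p under 0.05), for TIMP3-/- against WT (0.0161%, 2 members) and for TIMP3-/- against TIMP2-/- (0.0403%, 2 members). Sham arrays did not overlap for 11 members above and 2 below in TIMP2-/- against WT (29.9% and 14.9% of all genes), 9 and 0 in TIMP3-/- against WT (10.1% and 4.25%), and 4 and 0 in TIMP3-/- against TIMP2-/- (5.87% and 7.09%). Ccl5 had the largest difference from WT in TIMP3-/- sham (0.90 ± 0.25, adjusted p = 0.476), and Cxcr6 the largest between the knockouts (0.79 ± 0.14, adjusted p = 0.114). No member passed when the UUO responses were compared between genotypes, where 0.00%, 0.00% and 0.00807% of all genes passed and 4, 3 and 3 members had an unadjusted p under 0.05. The largest such difference was that of Ccl8 between the knockouts, 1.78 ± 0.79 (95% interval 0.10 to 3.47, adjusted p = 0.445). The response of Cxcr6 was larger than in WT by 1.03 ± 0.20 in TIMP2-/- (adjusted p = 0.518) and by 0.70 ± 0.20 in TIMP3-/- (adjusted p = 0.163), neither of which passed. A gene called in 1 genotype and not another, such as Cxcr4, Ackr3 or Ccl11, is therefore not shown to respond differently.

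Over the 21 members that rose in every genotype, the UUO arrays of WT and TIMP3-/- differed more among themselves than those of TIMP2-/-. Their mean log2 value was 9.19, 9.74 and 8.65 on the 3 WT UUO arrays, 9.16, 9.26 and 9.12 in TIMP2-/- UUO and 9.98, 9.55 and 9.34 in TIMP3-/- UUO. WT UUO 3 was the lowest of its group for 16 of the 21 genes and WT UUO 2 the highest for 13. Macrophage sums had the same order in WT (64967, 92884 and 50543) and in TIMP3-/- (115006, 85256 and 78637), with 62479, 63055 and 61063 in TIMP2-/-. Proximal tubule sums ran the other way in WT, at 28262, 14944 and 50442. Adipocyte sums were highest on WT UUO 2 (15542) and TIMP3-/- UUO 1 and 2 (17925 and 18706). The other UUO arrays had 7644 and 3068 in WT, 5597, 5190 and 6088 in TIMP2-/- and 2443 in TIMP3-/-. All sham arrays had 839 to 2225. Of 5 adipocyte genes, 4 rose in WT and in TIMP3-/-, where 16.8% and 25.7% of all genes rose. The part of these tissues in the chemokine values was not tested.

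The genes whose values followed the chemokines most closely were described for Ccl2, Cxcl1 and Cxcl10 by Pearson's r of log2 values over the 18 arrays, which all share the split between sham and UUO. For Ccl2 they were Krt20 (0.984), Cxcl1 (0.982) and Clec4a2 (0.982). Krt20 (0.991), Clec4a2 (0.989) and Cd44 (0.987) were closest to Cxcl1. For Cxcl10 they were Icam1 (0.990), Marcksl1 (0.990) and Psmb8 (0.989). Krt20 is a keratin and Clec4a2 a myeloid lectin.

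Around the ligands and receptors, several parts of the pathway rose as well. Of 18 transcriptional regulators of chemokine genes, 14, 13 and 14 rose in WT, TIMP2-/- and TIMP3-/-, and 1 fell in TIMP3-/-. They included Fos, a part of AP-1 (2.89 ± 0.45 in WT), Nfkbiz, a nuclear NF-kappaB cofactor (2.54 ± 0.50), Relb, an NF-kappaB subunit (2.21 ± 0.21), and Atf3 (2.12 ± 0.14). Of 21 genes of leukocyte adhesion to endothelium, 13, 11 and 13 rose and 0, 0 and 1 fell, led in WT by Cd44 (4.68 ± 0.31) and by Vcam1 (4.07 ± 0.25), the endothelial and tubular ligand of leukocyte integrin. Of 35 genes of signalling below chemokine receptors, 21, 16 and 23 rose and 0, 2 and 2 fell. Rac2, the leukocyte GTPase of cell movement, rose by 1.96 ± 0.27 in WT. Over all genes, 16.8%, 15.9% and 25.7% rose in the same comparisons.

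Cytokines that induce chemokine genes moved less together. Of 15, 4, 5 and 6 rose and 0, 1 and 5 fell, with median differences of 0.00, -0.04 and -0.10, beside 16.8%, 15.9% and 25.7% of all genes that rose and 16.2%, 22.0% and 38.8% that fell. Il33, an epithelial and endothelial alarm cytokine, rose by 2.43 ± 0.42 in WT, and Csf1, the macrophage growth factor, by 1.73 ± 0.21. Of 15 proteases and binding molecules that act on chemokines, 6, 6 and 9 rose and 2, 1 and 1 fell, with Mmp2 (3.88 ± 0.37) and its activator Mmp14 (3.52 ± 0.40) first in WT. Of 13 genes with chemokine activity or receptors that the name rule does not reach, 7, 5 and 9 rose and 1, 1 and 2 fell. Pf4, the platelet chemokine CXCL4 that is also made by macrophages, rose by 3.26 ± 0.54 in WT. It was at 5070 on WT UUO 2 and 6087 on TIMP3-/- UUO 1, the arrays that were also highest for Ccl8, and at 1005 to 1996 on the other UUO arrays.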

How the data were processed

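The authors used RMA, per the submitters' processing notes, with no version named there. RMA corrects background, quantile-normalizes and summarises probes. The deposited intensity values are linear, and no source used here says how RMA output was brought to that scale. Array medians lay between 201.2 and 247.4. Quantile normalization hides any shift shared by all transcripts. Depth does not apply to arrays: 3 arrays a group limit precision.

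Of 22690 probe sets, 64 controls were left out, and 20380 of the rest had 1 symbol. Log2 values without a pseudocount were fitted with limma 3.58.1 in R 4.3.3 (lmFit, eBayes) as 6 group means, with 12 residual and 3.35 prior degrees of freedom, and Benjamini-Hochberg adjustment over 12393 genes in each of 12 comparisons. The threshold for a call was 0.05 on the adjusted p. An exact permutation test of 3 against 3 cannot go below 0.1. The script was tested on simulated data.

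Chemokine members and gene lists were chosen with earlier results of these data known. Every member could be named; values on every array were given for the 12 with the largest passing change and those passing between genotypes. From other lists at most 4 passing members with the largest change were named. The lists covered chemokine pathway genes and markers of macrophages, neutrophils, T and NK, B and dendritic cells, endothelium, platelets, hepatocytes, adipocytes, tubule segments and red cells.

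Same-numbered arrays deviated together (every correlation over 0.1) for TIMP2-/- UUO against sham (0.328, 0.321 and 0.575) and TIMP2-/- UUO against WT UUO (0.209, 0.257 and 0.445). There the number may pair the arrays. Every other comparison held a negative correlation, and the main fit assumed no pairing. Deviations from a mean of 3 arrays are tied to each other, so these correlations cannot decide whether arrays were paired. Alternatives were a pseudocount of 16, a filter at an intensity of 64, other probe set rules, other scalings, fewer arrays, array weights and a replicate block. Promoters came from RefSeq, GRCm38.p6.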

Additional observations from a re-analysis of the deposited data

How the results depend on the processing

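No result reversed under any alternative. Of the members called between UUO and sham, 21 of 25 in WT, 20 of 27 in TIMP2-/- and 29 of 36 in TIMP3-/- passed under every setting that could test them; neither call between the knockouts, nor that of Cxcr6 against WT, did. Array weights raised the counts most: receptors called became 11 in WT and 17 in TIMP2-/-, where 51.8% and 70.9% of all genes passed. Of 52 members, those called after UUO became 4 (TIMP2-/- against WT, 5.51% of all genes), 19 (TIMP3-/- against WT, 26.1%) and 21 (TIMP3-/- against TIMP2-/-, 26.4%), after sham 3, 3 and 2 (7.57%, 8.86% and 0.516%), and for differences of the response 3 (TIMP2-/- minus WT, 4.97%), 16 (TIMP3-/- minus WT, 31.3%) and 11 (TIMP3-/- minus TIMP2-/-, 13.1%); the cause was not tested. The filter on low values left 11 receptors, of which 5 passed in TIMP2-/- and 7 in TIMP3-/-, where 40.7% and 66.2% of all genes did. Under it 0 members passed in TIMP3-/- against WT after UUO (0.381% of all genes), because it removed Cxcr6. That count was also 0 without suffixed probe sets (0.256%) and with only the arrays compared (0.00807%), and 3 without the 3 arrays that stood apart (4.07%). For TIMP3-/- against TIMP2-/- after UUO it was 1 with arrays centred, 1 with quantile normalization repeated, 0 with only the arrays compared and 1 without the 3 arrays; the cause was not tested. Without the 3 arrays, ligands called were 16, 20 and 22 and receptors 5, 10 and 13 in WT, TIMP2-/- and TIMP3-/-. Of all genes, 19.7%, 45.2% and 56.3% passed there.

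Leaving out 1 array at a time, ligands called ran from 16 to 20 in WT, 16 to 18 in TIMP2-/- and 19 to 23 in TIMP3-/-, and receptors from 5 to 6, 6 to 12 and 12 to 16. Members called after UUO ran from 1 to 7 for TIMP3-/- against WT and 0 to 12 for TIMP3-/- against TIMP2-/-. The TIMP3-/- minus WT response ran from 0 to 1 (Cx3cl1, without TIMP3-/- UUO 3), and the other genotype results stayed at 0. With the replicate block, ligands called were 19, 19 and 22 and receptors 7, 10 and 15, where 35.3%, 40.2% and 65.3% of all genes passed. After UUO Ccr2 joined Ccl28 and Cxcl17 between the knockouts, 3 in all, where 10.8% of all genes passed. Beyond the calls named in the text, WT Ccl28 and Ccr4 and TIMP3-/- Ackr3 and Ccl1 passed, and the block changed no other member's call. In dim genes, signal near background limits the size of any difference.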
